A study of Mus musculus and Mus musculus
Oryx dammah with 30 samples.

Results

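The cytosolic ribosomal protein genes were examined in mouse embryos that had received nuclei of C2C12 cells, a myoblast line of the C3H strain. The members were the protein-coding genes named Rps or Rpl with a number, together with Rplp0, Rplp1, Rplp2 and Rpsa and without Rps27l. This gave 79 genes, 30 of the small and 49 of the large subunit, among 53023 genes in the table of four-cell embryos and C2C12, 53023 in that of the replication experiment and 55364 in that of two-cell embryos. The recipients were in vitro fertilised BDF1 (C57BL/6 and DBA/2) embryos arrested with 0.1 µg/mL demecolcine, so every group shared the arrest, the fusion and the donor line. Four-cell NT embryos were fused at 46 hours post insemination (hpi) and collected at 70 hpi as pools of 3, with or without α-amanitin, an inhibitor of RNA polymerase II (3 libraries each). In the replication experiment, pools of 4 four-cell NT embryos without α-amanitin formed the groups D and DR (3 libraries each), and the labels do not state which letters stand for embryos fused before DNA replication. Two-cell NT embryos were pooled by 5, 6 libraries with and 6 without α-amanitin. They were fused at 21 hpi and collected at 45 hpi (early), or fused at 30 hpi and collected at 54 hpi (late). The two-cell columns are named NT and Am, and R and RAm, with 3 libraries each. Columns with Am in the name were taken as embryos with α-amanitin and the others as embryos without it, and since the names do not say which are early or late, these column sets are called by their names.

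Ribosomal proteins bind ribosomal RNA to form the small (Rps) and large (Rpl) subunits, and Rplp0, Rplp1 and Rplp2 form the stalk of the large subunit that recruits elongation factors. Their mRNAs are stable, abundant housekeeping transcripts that begin with a terminal oligopyrimidine (TOP) tract, through which growth signals set their translation. Mouse oocytes carry a store of maternal mRNA that is degraded as the embryonic genome becomes active, and ribosomal protein genes are among those transcribed anew in the two-cell embryo. Because each pool holds the recipient and the donor cell, fewer cells of a type and less RNA per cell cannot be told apart in these data.

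All 79 genes had an FPKM value (fragments scaled to gene length and library size) of at least 1 in at least 3 libraries of each table, the filter for testing. About 1136750 to 3100780 reads were counted per four-cell library, and about 63553 to 173982 of them fell on the members. The other tables hold many values that are fractions of a read, so their depth is approximate, at about 2604170 to 19193900 reads in the replication experiment and 4712540 to 10504200 in two-cell embryos. RNA spike-ins took 2.38% to 11.3% of the two-cell reads, being 2.38% to 2.81% in the R libraries and 8.77% to 11.3% in the RAm libraries. Oocyte and embryo markers were clearly present, with 10 to 14 of 14 markers at an FPKM of at least 1 in each library. Dppa3 alone had 8677 to 15928 FPKM in four-cell, 3330 to 5696 in replication and 689 to 12248 in two-cell libraries. Sums over these markers are therefore weighted heavily by Dppa3 and do not show how the others moved. Of 18 myoblast markers 6 to 14 reached that level, while the defining factor Myod1 was listed at 0 in 1 of 6 four-cell, 0 of 6 replication and 10 of 12 two-cell libraries, and Myf5 in 5, 4 and 8 of them. The summed FPKM of the myoblast markers was 90.3 to 2200 with and 177 to 718 without α-amanitin in four-cell embryos, 992 to 4300 in NT, 2319 to 2543 in Am, 163 to 510 in R and 1200 to 1779 in RAm libraries. Lgals1 alone had 69.3 to 1832 FPKM in four-cell and 110 to 3589 in two-cell libraries and weighed heavily on these sums. Of 6 cumulus and granulosa markers at most 1 reached an FPKM of 1 in a library. Amhr2 had 14.5 to 31.6 FPKM in four-cell, 9.60 to 19.2 in replication and 0 to 15.5 in two-cell libraries. Fshr was at 0 in all four-cell and replication libraries and in 11 of 12 two-cell libraries. The part of donor RNA in the results below was not tested.

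A run of pyrimidines was searched for around the start sites of the members, anywhere in the window, which does not test where the mRNA begins. Windows of 40 bases before and 20 bases after the annotated start site were available from RefSeq (GRCm38.p6) for 59 of the 79 members, using the entry nearest to the start in the tables. A C followed by at least 7 further pyrimidines (C or T) on the coding strand, in a run of at least 8, occurred in 30 of these 59 windows (50.8%) and in 6256 of 32851 windows of all genes (19.0%). Shown here, to set both ends of the order side by side, are the windows of the 5 members with the largest change between the R and RAm two-cell libraries, followed by 4 of the 5 with the smallest. Capitals mark the longest run of pyrimidines in the window, whose final 20 bases follow the annotated start.
Rpl39l, chr16:10170188-10170247, + strand: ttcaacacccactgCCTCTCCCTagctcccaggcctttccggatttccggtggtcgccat
Rpl10l, chr12:66284382-66284441, - strand: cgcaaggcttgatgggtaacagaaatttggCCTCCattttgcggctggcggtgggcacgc
Rpl41, chr10:128549149-128549208, - strand: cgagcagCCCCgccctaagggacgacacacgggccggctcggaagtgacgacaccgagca
Rpl24, chr16:55966235-55966294, + strand: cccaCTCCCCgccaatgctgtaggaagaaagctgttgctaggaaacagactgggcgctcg
Rps26, chr10:128626487-128626546, - strand: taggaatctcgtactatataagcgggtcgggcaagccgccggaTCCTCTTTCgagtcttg
Rps12, chr10:23787190-23787249, - strand: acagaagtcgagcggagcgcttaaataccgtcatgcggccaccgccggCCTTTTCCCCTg
Rpl12, chr2:32961672-32961731, + strand: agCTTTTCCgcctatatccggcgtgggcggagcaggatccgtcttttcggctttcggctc
Rps2, chr17:24720023-24720082, + strand: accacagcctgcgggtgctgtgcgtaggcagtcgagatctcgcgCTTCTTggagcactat
Rpl31, chr1:39367811-39367870, + strand: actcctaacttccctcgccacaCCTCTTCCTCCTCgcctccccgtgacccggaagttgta
Runs that met the rule stood at both ends of the order, with 11 bases in Rps12 and 13 in Rpl31 beside 9 in Rpl39l and Rps26, while the longest run had 4 bases in Rpl41 and 5 in Rpl10l. The annotated start of the RefSeq entry lay 0 bases (Rpl10l and Rpl24) to 1947 bases (Rps2) from the start in the tables, so that a window can miss the start in use.

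The share of all FPKM that fell on the members was smallest in the RAm libraries. In four-cell embryos they held 7.59% ± 0.285 of all FPKM (SD, n = 3) with and 6.63% ± 0.283 without α-amanitin. The groups D and DR held 4.29% ± 0.582 and 3.99% ± 0.192. In two-cell embryos the share was 3.53% ± 0.424 in NT, 1.96% ± 0.123 in Am, 3.21% ± 0.208 in R and 0.343% ± 0.0562 in RAm libraries. The share was therefore higher with α-amanitin in four-cell embryos and lower with it in both two-cell sets, without overlap between groups. Tables were normalised separately, and the shares between them were not tested. Transcripts of the mitochondrial genome, which count in the total, held 10.8% to 28.7% of FPKM in the four-cell libraries and 15.9% to 19.5% in the replication libraries, and were at 0 in every two-cell library.

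**Figure D1:**
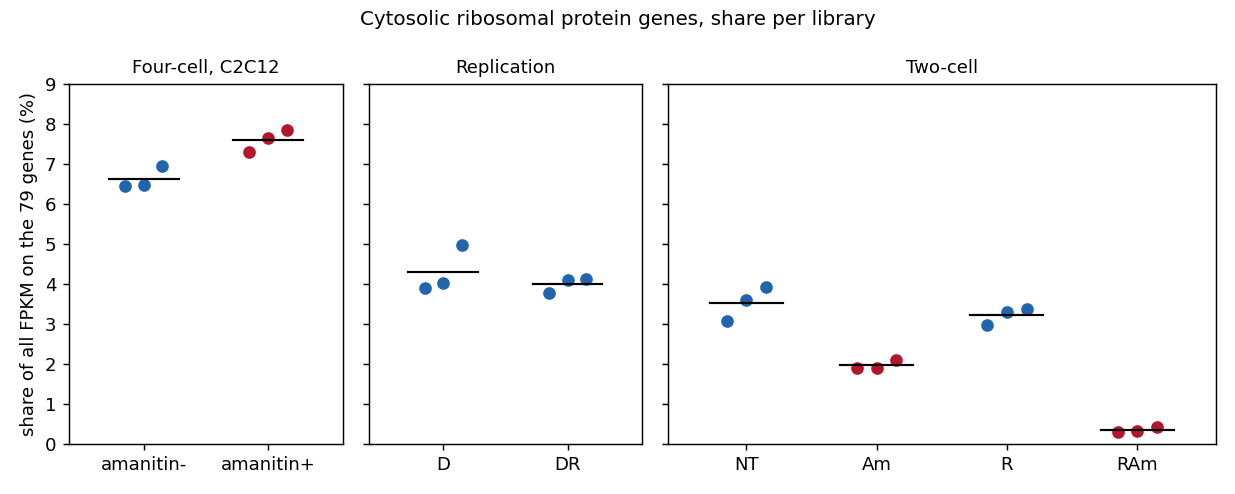
Share of all FPKM (%, spike-ins left out) held by the 79 ribosomal protein genes in each library, by table and group, with a line at the mean of 3 libraries. Red points are libraries with α-amanitin, which lie above those without it in four-cell embryos (7.28% to 7.84% against 6.45% to 6.95%) and below them in two-cell embryos, where RAm libraries lie at 0.302% to 0.407%.

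The order of levels within the family was much alike between experiments. Rpl41 (chr10:128548114-128549305), which encodes the smallest ribosomal protein, had the highest mean FPKM in all 3 tables, at 8004 in four-cell embryos, 4287 in the replication experiment and 3897 in two-cell embryos. Rplp0 was among the 3 highest in each table, with means of 1665, 1628 and 1120 FPKM. The lowest was Rpl3l, with a mean of 2.84, 1.64 and 7.96 FPKM, and the next lowest were Rpl13a (28.4) and Rps15a (35.7) in four-cell embryos, Rps15a (32.0) and Rpl27a (42.9) in the replication experiment, and Rps15a (16.5) and Rpl12 (21.5) in two-cell embryos. Spearman's correlation of the mean levels across the 79 genes was 0.90 between the four-cell and replication tables and 0.85 between the four-cell and two-cell tables. Within two-cell embryos it was 0.97 between R and NT and 0.74 between RAm and R, given as descriptions across genes that share libraries and lengths.

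In four-cell NT embryos, the comparison without and with α-amanitin asks which transcripts depended on RNA polymerase II during the culture after fusion. No member passed the test in either direction, whereas 11.1% of 9884 genes tested were higher and 1.13% lower without α-amanitin (limma, adjusted p under 0.05). At an unadjusted p under 0.05 there were 20 members, all lower, and 28.9% of all genes tested in either direction, and the median log2 change was -0.40 over the members (range -0.92 to 1.06) and 0.37 over all genes tested. Values for 75 of the 79 members were below 0. Under median-of-ratios scaling 8 members passed, all lower without α-amanitin (2.26% of all genes tested were), and the median was -0.71. In 48 members the 3 libraries without α-amanitin all lay below the 3 with it, which 7.56% of all genes tested did. Transcripts of the mitochondrial genome moved in the same direction and held 20.1% to 28.7% of FPKM with α-amanitin and 10.8% to 11.5% without it. The summed FPKM of the oocyte and embryo markers did too, at 12250 to 16153 with and 8980 to 9981 without α-amanitin. Nearly all of this sum was Dppa3, at 8677 to 15928 FPKM over the 6 libraries, so it does not show how the other markers moved. The part of these differences in the members' values was not tested.

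Values of single members follow, none of which passed the test. Rpl41 had 8963, 8610 and 8976 FPKM with α-amanitin and 7721, 7374 and 6378 without it, a log2 change of -0.31 ± 0.15 (SE, adjusted p = 0.206, limma). The groups did not overlap, yet the change did not pass the test. Rpl29 had 158, 163 and 244 FPKM with and 91.2, 118 and 116 without (-0.77 ± 0.25, adjusted p = 0.0812). Library S8, with α-amanitin, was the highest for Rpl29, as it was for Rplp1, Rplp2, Rps21 and Rps19. This library also had the highest summed FPKM of myoblast markers, at 2200, most of it Lgals1 (1832), against 90.3 and 237 in S16 and S18. Its share of mitochondrial-genome transcripts was the highest too, at 28.7% against 20.1% and 21.9%. The part of either in these values was not tested.

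None of the 3 stalk genes passed the test. Rplp0 had 1826, 2145 and 1422 FPKM with and 1711, 1708 and 1181 without α-amanitin, so the groups overlapped (-0.23 ± 0.23, adjusted p = 0.539). For Rplp1 the values were 1596, 1518 and 3021 with and 1180, 1164 and 1372 without (-0.65 ± 0.27, adjusted p = 0.149), and Rplp2 had 379, 394 and 704 with and 294, 251 and 322 without (-0.71 ± 0.27, adjusted p = 0.123). Rps6, the small subunit protein phosphorylated downstream of mTOR, had 262, 257 and 225 FPKM with and 260, 267 and 235 without α-amanitin (0.04 ± 0.20, adjusted p = 0.926). Rpl5 and Rpl11, which can bind Mdm2 and so stabilise p53, changed by -0.14 ± 0.23 and -0.37 ± 0.23 (adjusted p = 0.721 and 0.334). The other members with the most negative values were Rps21 and Rps19 (both -0.65), and those above 0 were Rpl10l, Rpl13a (0.17), Rpl39l and Rps6.

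In two-cell NT embryos the same comparison showed the members higher without α-amanitin, far more so in the R and RAm libraries than in the NT and Am libraries. FPKM were scaled here to the 47 spike-ins found in all 12 libraries, and the log2 changes of both sets come from 1 limma model of the 4 column groups over 17196 genes. Between R and RAm, 79 of 79 members rose without α-amanitin, as did 76.2% of all genes tested, and the median log2 change was 4.38 over the members (2.54 to 7.37) and 2.19 over all genes. Between NT and Am, 74 members rose, 35.1% of all genes did, and the medians were 1.53 (-0.22 to 2.37) and 0.80. The values over all genes include low genes, whose changes are understated on this scale. With a filter at FPKM 10, 5398 of 6328 genes rose between R and RAm and 3320 between NT and Am. The medians over all genes were then 3.93 and 1.07, and those over the members stayed at 4.38 and 1.53. Under median-of-ratios scaling, which sets the typical gene near 0, 6 members had a value below 0 between R and RAm and 7 between NT and Am, and the medians over the members were 1.08 and 0.50. With that scaling 58 members rose between R and RAm (36.5% of all genes tested) and 2, Rps12 and Rpl12, fell (24.9%), and 18 rose between NT and Am (6.36%). With FPKM as deposited, 79 members rose between R and RAm (54.9% of all genes, member median 2.46) and 42 between NT and Am (13.4% of all genes, member median 0.74).

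**Figure D2:**
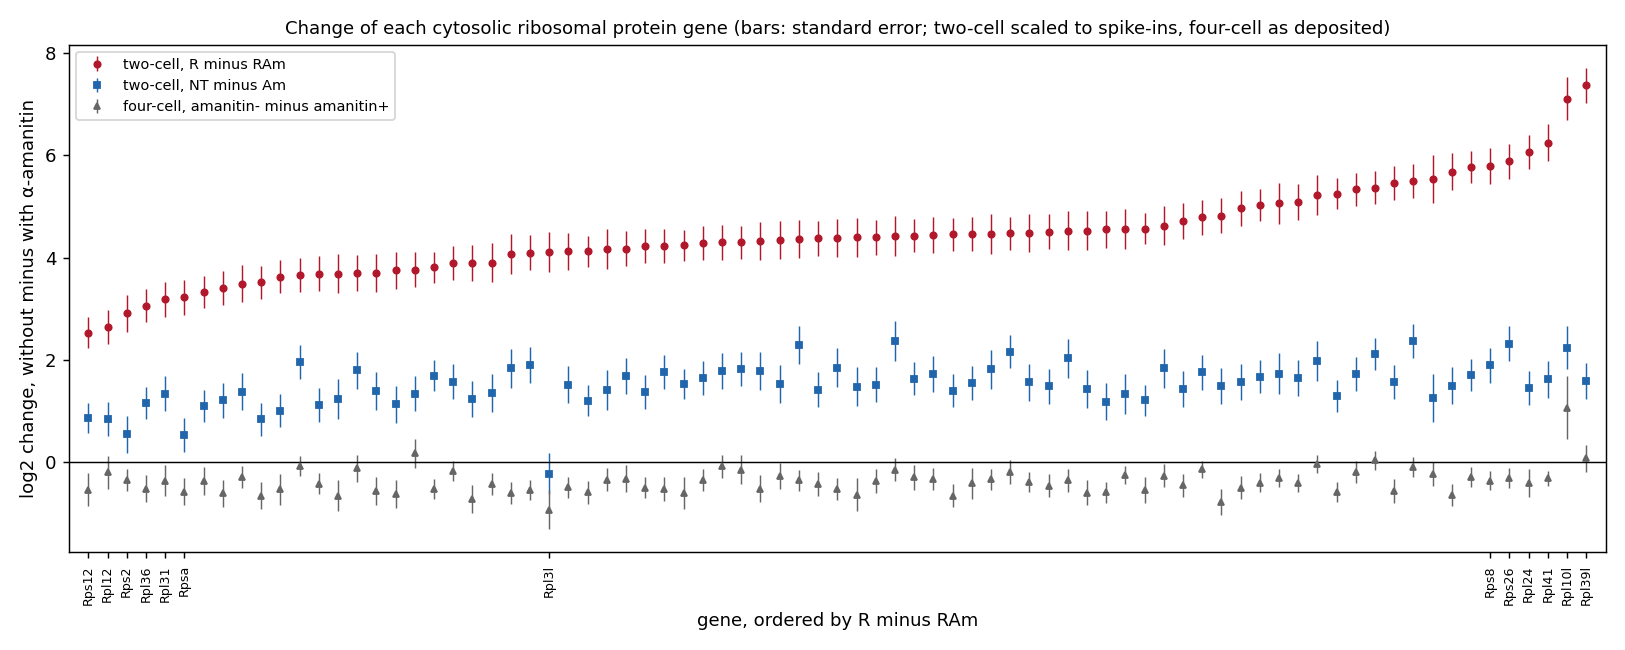
Log2 change without minus with α-amanitin (vertical axis, log2(FPKM + 1), bars show the standard error) of each of the 79 genes, ordered along the horizontal axis by R minus RAm (red; genes at both ends and Rpl3l are named), with NT minus Am (blue) and the four-cell comparison (grey). With spike-in scaling every red point is above 2.5 and all blue points except Rpl3l are above 0. The grey points come from FPKM as deposited, without spike-in scaling, and 75 of the 79 are below 0. With FPKM as deposited the two-cell medians were 2.46 (R minus RAm) and 0.74 (NT minus Am). Under median-of-ratios scaling 6 red and 7 blue points fall below 0.

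Rpl41 shows the range of the response. Its spike-scaled FPKM were 9696, 9143 and 11990 in the R libraries (R3, r1 and r2) and 120, 251 and 78.4 in RAm1 to RAm3, a log2 change of 6.25 ± 0.36 (limma, adjusted p = 5e-09). In the other set they were 9680, 10260 and 5593 in NT1 to NT3 and 2775, 2761 and 2484 in Am1 to Am3 (1.62 ± 0.36, adjusted p = 0.00462). The libraries without α-amanitin overlapped between the sets, and the RAm libraries lay far below every other library. The summed FPKM of the oocyte and embryo markers was also lower there, at 1875 to 3566 as deposited in RAm and 7495 to 9147 in R libraries. Between the other libraries the sums did not overlap either, at 6979 to 8171 in Am and 8501 to 12372 in NT (spike-scaled 4497 to 6222 and 8030 to 15345). Dppa3 alone ran from 689 to 12248 FPKM over the two-cell libraries and weighed heavily on these sums. They do not show how the other markers moved, and their part in the members' values was not tested. As deposited, the same gene had 253, 411 and 171 FPKM in RAm and 4466, 4939 and 5452 in R.

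The 5 largest changes between R and RAm belonged to Rpl39l, Rpl10l, Rpl41, Rpl24 and Rps26. Rpl24, a large subunit protein at the subunit interface, had 507, 345 and 439 spike-scaled FPKM in R and 5.63, 8.12 and 3.28 in RAm (6.06 ± 0.33, adjusted p = 3.79e-09). Rps26 had 836, 581 and 790 in R and 7.83 to 16.6 in RAm (5.89 ± 0.34, adjusted p = 5.34e-09). The smallest changes belonged to Rps12, Rpl12, Rps2, Rpl36 and Rpl31. Rps12 had 89.2, 69.9 and 73.4 in R and 10.4, 17.4 and 10.6 in RAm (2.54 ± 0.30, adjusted p = 2.33e-06), and 64.3, 50.2 and 55.1 in NT against 28.3, 33.5 and 29.6 in Am (0.87 ± 0.30, adjusted p = 0.0367). Neither pair of groups overlapped, but under median-of-ratios scaling the R minus RAm value of Rps12 turned to -0.78. Rps12 has 22 named pseudogenes in the four-cell table and Rpl31 has 23, the most of any members, and reads that fit a gene and its pseudogene cannot be assigned with certainty.

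Between NT and Am the largest changes were those of Rpl27, Rpl5, Rps26 (2.31 ± 0.34), Rpl34 (2.29 ± 0.37) and Rpl10l (2.24 ± 0.42), all of which passed. Rpl27 had 240, 156 and 105 spike-scaled FPKM in NT and 32.8, 33.1 and 24.2 in Am (2.37 ± 0.34, adjusted p = 0.000691). Rpl5 had 210, 109 and 72.4 in NT and 22.9, 25.1 and 18.9 in Am (2.37 ± 0.39, adjusted p = 0.00117). In both genes the lowest NT library, NT3, still lay above all Am libraries. The 5 members that did not pass were Rpl12 (0.85, adjusted p = 0.0548), Rplp1 (0.84, adjusted p = 0.0534), Rps2 (0.55, adjusted p = 0.247), Rpsa (0.53, adjusted p = 0.222) and Rpl3l (-0.22, adjusted p = 0.677). Rpsa, which is also the laminin receptor precursor, had 99.6, 85.6 and 43.3 in NT and 51.9, 51.7 and 44.7 in Am, with NT3 below every Am library.

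Rps6, Rps27a, Rpl5, Rpl11 and Rpl22 passed the test in both sets. Rps6 had 732, 550 and 734 spike-scaled FPKM in R and 14.0, 19.4 and 12.7 in RAm (5.37 ± 0.32), and 679, 423 and 337 in NT against 107, 117 and 92.6 in Am (2.12 ± 0.32, adjusted p = 0.000775). Rps27a, made as a fusion with ubiquitin, changed by 4.96 ± 0.35 between R and RAm and by 1.57 ± 0.35 between NT and Am. For Rpl5 and Rpl11 the R minus RAm values were 4.42 ± 0.39 and 4.40 ± 0.34, and Rpl11 changed by 1.51 ± 0.34 between NT and Am. The values of Rpl5 and Rpl11 are close to the medians of the family, apart from the NT minus Am value of Rpl5 given above. Rpl22, which has a paralog in Rpl22l1, changed by 4.33 ± 0.38 and 1.78 ± 0.38.

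Small and large subunits gave like values. Between R and RAm the median was 4.47 over the 30 small subunit genes and 4.33 over the 49 large subunit genes, and between NT and Am it was 1.56 and 1.53. In four-cell embryos both medians were -0.40. The 4 X-linked members, Rpl10, Rpl36a, Rpl39 and Rps4x, changed by 3.70 to 4.38 between R and RAm and by 1.42 to 1.85 between NT and Am. Within the stalk, Rplp0 changed the most between R and RAm (5.54 ± 0.47), ahead of Rplp2 (3.90 ± 0.35) and Rplp1 (3.52 ± 0.32). The NT libraries of Rplp0 were far apart, at 2786, 2624 and 568.5 spike-scaled FPKM in NT1 to NT3 against 726, 653 and 646 in Am, so that NT3 lay below all Am libraries and the change only just passed (1.25 ± 0.47, adjusted p = 0.0496). Library NT3 also had the highest summed FPKM of myoblast markers, at 4300, most of it Lgals1 (3589), against 1566 in NT1 and 992 in NT2. Its spike-scaled sum of oocyte and embryo markers was the lowest, at 8030 against 14630 and 15345. The part of either sum in the values of NT3 was not tested. Across the 79 genes, Spearman's correlation between the R minus RAm and NT minus Am changes, which come from different libraries on a common scaling, was 0.49. The same coefficient between the four-cell change and either two-cell change was 0.26 for R minus RAm and 0.52 for NT minus Am, and that between gene length and these changes lay between -0.10 and 0.05.

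The paralogs Rpl10l, Rpl39l and Rpl3l stood at the ends of several of these orders. Rpl10l (chr12:66283379-66284401) and Rpl39l (chr16:10170226-10174911) are known for testis expression and stand in for the X-linked Rpl10 and Rpl39, and Rpl3l (chr17:24727820-24736143) replaces Rpl3 in striated muscle. Rpl10l had 167, 141 and 208 spike-scaled FPKM in R and 0.0492, 0.135 and 0.609 in RAm (log2 change 7.10 ± 0.42, adjusted p = 6.08e-09), whereas Rpl10 had 380, 229 and 306 in R and 12.4, 15.1 and 12.9 in RAm (4.38 ± 0.34, adjusted p = 4.94e-08). The groups were apart in both genes, and since values below 1 are held near 0 by the added 1, the change of Rpl10l is understated. Rpl39l had 749, 634 and 659 in R and 4.42, 2.83 and 2.37 in RAm (7.37 ± 0.34, adjusted p = 1.35e-09), as against 4.38 ± 0.38 for Rpl39. As a percentage of its parent, as deposited, Rpl10l stood at 43.9% to 68.0% in R and 0.397% to 4.73% in RAm, and Rpl39l at 104% to 181% and 7.25% to 26.5%, so neither overlapped.

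In the NT and Am libraries the ratios of the paralogs to their parents took other values. Rpl10l stood at 26.0% to 27.4% of Rpl10 in NT and 8.28% to 21.7% in Am. For Rpl39l the ranges were 57.3% to 65.7% of Rpl39 in NT and 63.7% to 83.2% in Am, which overlap. Rpl3l behaved differently from its parent in this set, with 10.3, 6.83 and 5.40 spike-scaled FPKM in NT and 8.06, 8.56 and 9.35 in Am, while Rpl3 had 117, 92.7 and 71.0 in NT and 20.7, 29.5 and 25.3 in Am (1.84 ± 0.38, adjusted p = 0.00365). Rpl3l was thus at 29.0% to 38.9% of Rpl3 in Am and at 7.37% to 8.84% in NT. In the R set it had 23.1, 22.5 and 31.8 in R and was listed at 0 in RAm1, with 0.258 and 1.88 in RAm2 and RAm3 (4.11 ± 0.39, adjusted p = 2.95e-07).

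In four-cell embryos Rpl10l had the largest positive and Rpl3l the largest negative value. Rpl10l had 73.4, 86.0 and 14.8 FPKM with and 95.7, 143 and 66.0 without α-amanitin (1.06 ± 0.62, adjusted p = 0.289), and without library S8 all members' values were at most 0.28. Rpl3l had 3.53, 4.28 and 4.21 FPKM with and 1.87, 2.00 and 1.13 without (-0.92 ± 0.39, adjusted p = 0.153), groups that did not overlap. Rpl39l had 407, 294 and 376 FPKM with and 494, 394 and 271 without α-amanitin, and as a percentage of Rpl39 it stood at 99.8% to 125% with and 141% to 202% without. Rpl10l was at 5.49% to 31.9% of Rpl10 with and 37.6% to 63.8% without α-amanitin, so both ratios were higher without it in all libraries. In the replication experiment Rpl10l was at 62.9% to 75.1% of Rpl10 in DR and 36.0% to 56.1% in D, while Rpl39l overlapped (96.0% to 136% and 76.8% to 99.5% of Rpl39).

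**Figure D3:**
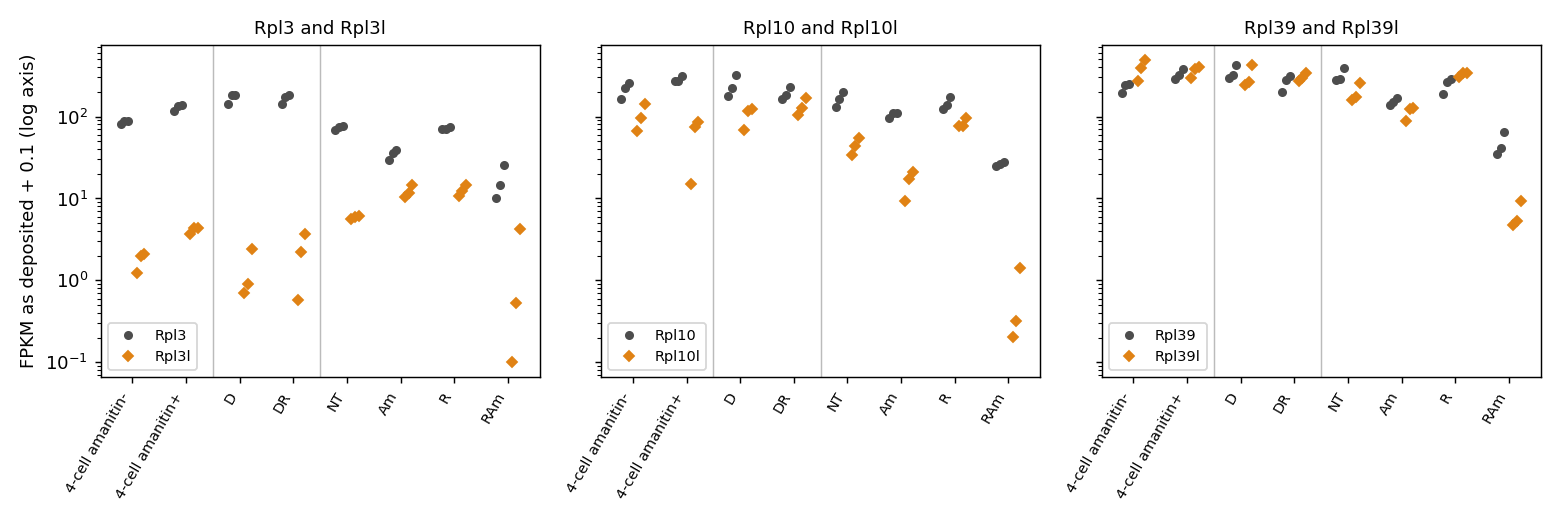
FPKM as deposited, plus 0.1 on a log axis, of 3 parent genes (grey circles) and their paralogs (orange diamonds) in each library of the 8 groups, with vertical lines between the tables. In RAm libraries Rpl10l lies at 0.103 to 1.33 FPKM beside 76.1 to 94.7 in R, and Rpl39l at 4.63 to 9.30 beside 300 to 345, while Rpl3l is higher in Am (10.4 to 14.5) than in NT (5.50 to 6.00).

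The difference between the column sets was itself tested in the same model. For all 79 members the change between R and RAm exceeded that between NT and Am (50.5% of all genes tested were called in this direction), with a median difference of 2.75 on the log2 scale (1.67 to 5.78), as against 1.42 over all genes. With a filter at FPKM 10, 4746 of 6328 genes were called in this direction and the median over all genes was 2.61. Among the members the difference was largest for Rpl39l (5.78 ± 0.49), Rpl10l (4.86 ± 0.59), Rpl41 (4.62 ± 0.50), Rpl24 (4.60 ± 0.47) and Rpl3l (4.33 ± 0.56), and smallest for Rps12 (1.67 ± 0.42). With FPKM as deposited the median difference was 1.63, and under median-of-ratios scaling it was 0.50, where 24 members passed (19.7% of all genes tested did in this direction) and 17 had a value below 0.

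The sets differed mostly in the embryos with α-amanitin. From Am to RAm all 79 members fell (39.7% of all genes tested did), by a median log2 change of -2.32 (-4.31 to -1.22), the largest falls being those of Rpl41 (-4.31 ± 0.36), Rpl39l (-4.29 ± 0.34), Rpl24 (-3.94 ± 0.33), Rps25 (-3.80 ± 0.37) and Rpl26 (-3.80 ± 0.31). With a filter at FPKM 10, 4574 of 6328 genes fell, at a median of -1.86 over all genes. The oocyte and embryo markers summed to 4497 to 6222 spike-scaled FPKM in Am and 859 to 2178 in RAm, and the myoblast markers to 2319 to 2543 FPKM as deposited in Am and 1200 to 1779 in RAm. Dppa3 weighed heavily on the first of these sums and Lgals1 on the second. The part of either sum in the fall was not tested. With FPKM as deposited all 79 still passed, at a median of -1.92 (43.1% of all genes tested fell), and with median-of-ratios scaling 54 did, at -0.84 (24.6% of all genes). From NT to R, 3 members rose (18.3% of all genes tested did), and these were the paralogs Rpl3l (1.68 ± 0.39, adjusted p = 0.0140), Rpl10l (1.61 ± 0.42, adjusted p = 0.0203) and Rpl39l (1.49 ± 0.34, adjusted p = 0.0132). None of the 3 passed with FPKM as deposited (1.37% of all genes tested rose), where their values were 0.98, 0.90 and 0.78. No member rose when scaled to the library sum (2.02% of all genes) or by median of ratios (0.506%). The count was 12 without library NT1, 1 without NT3 and 1 without r2, and of all genes tested 41.5%, 6.56% and 5.19% rose in those fits. Over the members the median from NT to R was 0.39 with spike-in scaling, below the 0.63 of all genes, and it turned to -0.31 with FPKM as deposited. Of the 79 values 78 were above 0, and that of Rpl32 was -0.01 ± 0.30 (adjusted p = 0.980). The median was 0.63 without NT1 (0.89 over all genes) and 0.14 without NT3 (0.39 over all genes). Each of these comparisons shares libraries with the contrasts of α-amanitin above.

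The labels divide the two-cell samples by stage and by α-amanitin, but the columns could be matched to α-amanitin only. When the 12 libraries were tested by α-amanitin alone, with early and late embryos pooled, 79 members rose without α-amanitin (71.4% of all genes tested did), at a median log2 change of 2.98 (1.49 over all genes). With a filter at FPKM 10 the median over all genes was 2.51. With FPKM as deposited, 65 rose (38.9% of all genes) and the median was 1.60. The group with α-amanitin holds both the Am and RAm libraries, whose member shares of FPKM do not overlap, so this contrast averages over them.

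**Figure D4:**
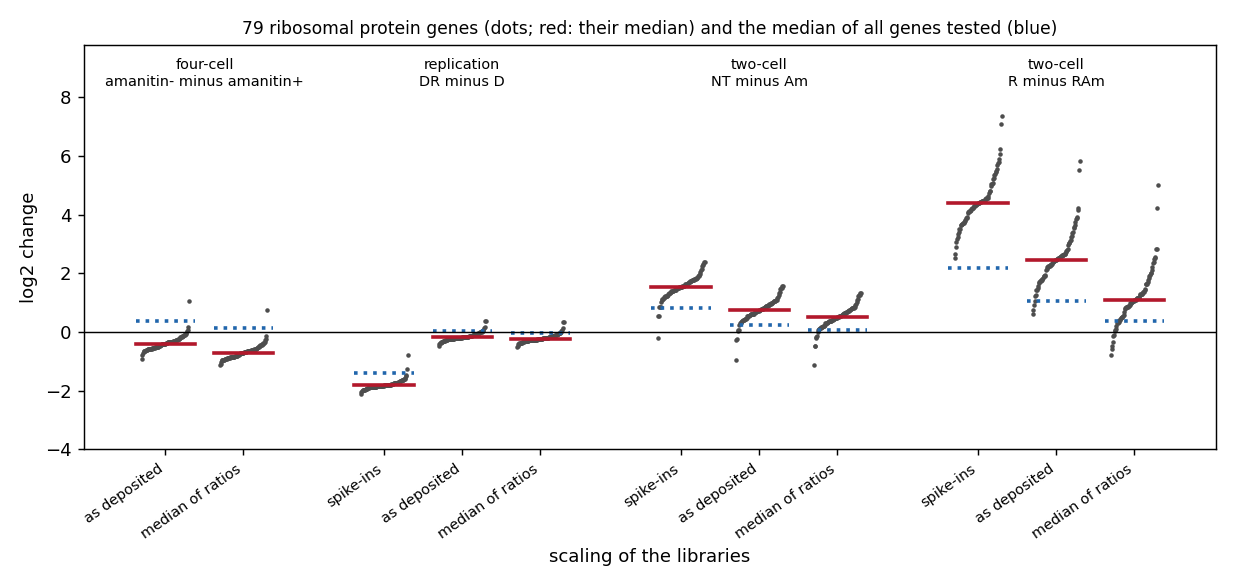
Log2 change (vertical axis) of the 79 genes (dots in rank order, red line at their median) in 4 comparisons under the scalings named below the axis, with the median of all genes tested as a blue dotted line. The red line lies above the blue line in both two-cell comparisons under all 3 scalings shown (spike-ins: 4.38 against 2.19 for R minus RAm) and below it in four-cell embryos and for DR minus D. With spike-ins and a filter at FPKM 10, not shown, the median of all genes for R minus RAm was 3.93. Single members fall below 0 in the two-cell comparisons under median-of-ratios scaling.

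In the replication experiment, which asks whether DNA replication after fusion alters the transcripts, no member passed the test between DR and D, nor did any other gene (0% of 14570 higher and 0% lower, limma), with 0 members and 88 genes at an unadjusted p under 0.05. Scaling to the 19 spike-ins above 0 throughout gave a median log2 change of -1.82 over the members and -1.41 over all genes, but the standard errors were as large as the values (Rpl41 -1.99 ± 2.19, adjusted p = 0.713). Spike-ins took 0.0181% to 0.776% of the reads in the D libraries, and Rpl41 ranged from 863 to 46238 spike-scaled FPKM within D. As deposited, Rpl41 had 3711, 4024 and 3626 FPKM in DR and 4331, 5195 and 4835 in D, and Rplp0 had 1454, 1617 and 1222 in DR and 1547, 2692 and 1236 in D. The groups of Rpl41 did not overlap as deposited and those of Rplp0 did. The oocyte and embryo markers summed to 3507 to 4148 FPKM as deposited in DR and 4635 to 5771 in D, nearly all of it Dppa3 (3330 to 5696 over both groups). The myoblast markers summed to 248 to 417.9 in DR and 418.4 to 564 in D. For the cumulus and granulosa markers the sums were 16.2 to 19.9 in DR and 10.4 to 10.7 in D. The part of these sums in the members' values was not tested. Median changes of the members were -0.19 as deposited and -0.06 when scaled to the library sum, both with 0 calls, and the most negative values with spike-ins included those of Rps4x (-2.11 ± 2.40), Rpl39 (-2.05 ± 2.41), Rps26 (-2.01 ± 2.41) and Rpl10a (-1.99 ± 2.38). The median with spike-ins was -3.27 without library D5 and -0.60 without D1.

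Genes related to the members were tested in the same fits, in which 76.2% of all genes rose between R and RAm (median 2.19) and 35.1% between NT and Am (median 0.80). With a filter at FPKM 10 these medians over all genes were 3.93 and 1.07. Of the 8 ribosomal protein genes outside the rule, 8 rose between R and RAm and 4 between NT and Am, with medians of 4.83 and 1.27. In four-cell embryos none of them passed the test (11.1% of all genes were higher and 1.13% lower), and their median was -0.14 (0.37 over all genes tested). Among them Fau, a ubiquitin-like fusion with Rps30, changed by 5.62 ± 0.34 between R and RAm, by 1.31 ± 0.34 between NT and Am and by -0.64 ± 0.20 in four-cell embryos (adjusted p = 0.0736). Of 17 other mRNAs known for a TOP tract, 17 rose between R and RAm (median 3.89) and 14 between NT and Am (median 1.71), led by Npm1 (6.25 ± 0.36 and 2.30 ± 0.36) and Hnrnpa1 in the NT set (3.29 ± 0.44). Naca and Btf3, of the nascent polypeptide-associated complex, changed by 5.28 ± 0.33 and 4.76 ± 0.31 between R and RAm. In four-cell embryos 0 of the 17 passed, while 11.1% of all genes tested were higher and 1.13% lower without α-amanitin. The median of the 17 was -0.04 (0.37 over all genes tested), with Eif3h at -0.52 ± 0.19.

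Mitochondrial ribosomal proteins are encoded in the nucleus but serve the mitochondrial ribosome. Of 77 tested in two-cell embryos, 77 rose between R and RAm (median 3.97), as did 76.2% of all genes, and 48 between NT and Am (median 1.21), as did 35.1%, with Mrpl50 among them (5.62 ± 0.31 and 2.83 ± 0.31). In four-cell embryos 3 of 77 rose without α-amanitin (11.1% of all genes did), namely Mrpl50 (1.95 ± 0.37, adjusted p = 0.0158), Mrps12 (1.26 ± 0.34, adjusted p = 0.0472) and Mrpl43 (1.5 ± 0.40, adjusted p = 0.0439). The median of the list was 0.19, that of the 79 cytosolic members -0.40 and that of all genes tested 0.37, and the difference between the families was not tested. Pseudogenes of ribosomal proteins, whose reads cannot be fully told from those of the members, rose in 219 of 223 cases between R and RAm (median 3.55) and in 180 between NT and Am (median 1.35), beside the same 76.2% and 35.1% of all genes. They held 0.334% to 0.396% of FPKM in four-cell, 2.18% to 3.24% in replication and 0.236% to 2.21% in two-cell libraries. In four-cell embryos 1 of 112 rose (Rpl30-ps6; 11.1% of all genes tested did) and 3 fell (1.13% of all genes did), among them Rps18-ps1 (-1.79 ± 0.48, adjusted p = 0.0452). Exons of 37 members overlap another annotated gene, in 15 cases a protein-coding one, among them Rpl5, Rpl12, Rpl31 and Rps27a, so part of their values may come from the neighbour.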

How the data were processed

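The deposited FPKM tables of the four-cell C2C12, replication and two-cell experiments were used. Per the labels and the methods of the study, the authors trimmed reads with Trimmomatic, Trim Galore and cutadapt, mapped them with STAR to mm10 and counted them with featureCounts (versions and annotation not given in the sources used here). In the deposited FPKM, values times gene length sum to the same total in every library, without spike-in scaling. In the four-cell table they are whole multiples of 1 read. The deposited gene length, another column of these tables, was used to estimate reads. Only columns whose names matched a group were read, which left out 4 others. The table of Oryx dammah cells was not used, since its identifiers are not paired with symbols.

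FPKM were scaled to spike-ins by the median of ratios where at least 10 were above 0 in every library (replication and two-cell; the four-cell table lists 0). A gene entered a fit when 3 or more libraries reached 1 FPKM before scaling. The test was limma (version 3.58.1, R 4.3.3), two-sided and with a trended prior variance, applied to log2(FPKM + 1), and p-values were adjusted over all genes tested by the Benjamini-Hochberg method. Log2 changes are on this scale and understate the change of low genes. A call is an adjusted p under 0.05 in either direction. The fits by two-cell column set were added after the column names were seen. The study describes the libraries of a group as biological replicates done independently, though the labels do not say so, and p-values measure the spread between these pools. The fits were tested on simulated data. Tables and figures were made with Python 3.11.15, pandas 2.3.3, scipy 1.17.1 and matplotlib 3.10.9.

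The members and lists were chosen with earlier results of these data known. Genes named in the text are a fixed set of members (stalk, p53-linked, paralogs and their parents, Rps6, Rps27a, Rpsa, Rps4x, Rpl22), the 5 largest changes in each direction per comparison, the 3 highest and 3 lowest levels per table, the 3 related genes per list with the smallest p, and every member of a count of 5 or fewer. Values of 1 member that this rule names are not reported here. Rps4l is listed as a pseudogene and was no member. The members with the smallest two-cell changes were chosen after their values were seen. Promoter windows were taken from RefSeq (GRCm38.p6), which held 59 members, gene positions from the deposited tables, and overlapping genes from GENCODE vM21 (the same mm10 build). Marker lists were used to check the labels and their sums are given beside the main comparisons. Alternatives were another pseudocount (0.1), no filter, a filter at FPKM 10, other scalings, no trend, each library left out and a replicate block.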

Additional observations from a re-analysis of the deposited data

Results flagged for a closer look

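For all 79 members the change between embryos without and with α-amanitin differed between the two-cell column sets, being larger between R and RAm than between NT and Am (limma, test of the difference), with a median difference of 2.75 on the log2 scale. Of all genes tested 50.5% were called in this direction, and under median-of-ratios scaling 24 members passed and 17 had a value below 0. With a filter at FPKM 10, 4746 of 6328 genes were called in this direction, at a median of 2.61 over all genes. The smallest differences were those of Rps12 (1.67), Rpl17 (1.70) and Rpl12 (1.80), and the largest those of Rpl41 (4.62), Rpl10l (4.86) and Rpl39l (5.78). The share of FPKM on the members was 0.962 percentage points lower without than with α-amanitin in four-cell embryos (a difference of -0.962) and 2.22 percentage points higher in two-cell embryos, every library of a group lying on one side, and this contrast between stages was not tested. Rps2 had 87.8 spike-scaled FPKM in library NT3, far below the other 5 two-cell libraries without α-amanitin. Of 52 groups of libraries examined for such gaps 1 stood out, and chance alone marks about 1 in 20.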

How the results depend on the processing

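The limits are few libraries, unlabelled early and late columns and a strong pull of the scaling. Under median-of-ratios scaling the four-cell comparison gave 8 members lower (2.26% of all genes, median -0.71). The same scaling gave 40 members higher for the pooled two-cell comparison (21.9% of all genes, median 0.79), 18 for NT minus Am (6.36%, median 0.50), 58 higher and 2 lower for R minus RAm (36.5% and 24.9%, median 1.08), 24 for the difference of the sets (19.7%, median 0.50), 0 for R minus NT (0.506%, median -0.33), and a median of -0.84 for RAm minus Am. It reversed the R minus RAm values of Rpl12 (-0.58), Rpl31 (-0.15), Rpl36 (-0.34), Rps12 (-0.78), Rps2 (-0.48) and Rpsa (-0.11). With FPKM as deposited the medians were 1.60 (pooled), 0.74 (NT minus Am, 42 members and 13.4% of all genes higher), 2.46 (R minus RAm), 1.63 (difference of the sets), -0.31 (R minus NT, 0 members and 1.37% of all genes higher) and -1.92 (RAm minus Am). Scaled to the library sum they were 1.86, 0.84, 2.87, 1.94 and, for R minus NT, -0.17 with 0 members and 2.02% of all genes higher. With a pseudocount of 0.1, 1 member and 4.11% of all genes were higher in R than in NT. The cause of these shifts was not tested beyond the scaling itself. Leaving out 1 library at a time gave 1 to 12 members higher for R minus NT, with 12 without NT1, 1 without NT3 and 1 without r2, and moved the four-cell value of Rpl12 between -0.36 (without S16) and 0.093 (without S8). In the other comparisons the counts of members called stayed within 1.5 times of the reported ones. The numbers of the two-cell columns do not pair the libraries (correlations of deviations between same-numbered libraries -0.0044 to 0.0789), and with the number as a replicate block 79 members rose (67.5% of all genes), with the same median of 2.98. No paired analysis was made for the four-cell and replication experiments because the columns of their groups share fewer than 2 numbers and no label pairs them. The four-cell columns carry adjacent numbers across the groups (S7 and S8, S15 and S16, S17 and S18). Whether these are pairs is not stated, and pairing by them was not tested. The planned fit with early and late stage as a covariate was not run because the column names do not give the stage. With the column set as a covariate, added after seeing the data, 79 members rose (72.6% of all genes), and with the 6 libraries of each set alone 73 (NT minus Am, 31.5%) and 79 (R minus RAm, 80.5%) did.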
